A study of Auxenochlorella pyrenoidosa with 18 samples.

Results

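In Auxenochlorella pyrenoidosa FACHB-9, a green alga, 141 of 10284 predicted genes have a coding sequence in a single piece. A gene was counted here where its transcript with the longest coding sequence had exactly 1 line of coding sequence in the deposited gene models. The series holds 18 messenger RNA libraries of whole cells in 6 groups of 3. They come from heterotrophic cells, fed glucose and urea, at 0, 24 and 72 h, and from cells diluted and moved to light once the glucose was used up, at 2, 8 and 24 h. Expression values of these libraries were not analysed here, so the groups are not compared. The models are an annotation of the alga that no single library owns, and they carry no replicates. The models carry no gene names or products, and no genome sequence was used here, so no model is given a product and no sequence is shown.

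Most nuclear genes of green algae are interrupted by introns, stretches that the spliceosome removes from the transcript before translation. A gene can lack an intron in its coding sequence and still have one in its untranslated leader or tail, and it then still needs splicing. Replication-dependent histone genes of animals are the textbook example of genes without introns, and in the green algae Volvox carteri and Chlamydomonas reinhardtii histone genes lie in pairs that are read away from each other.

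The 141 models were of 3 kinds. In 101, here called complete, the annotation held both a start and a stop codon. Of these, 51 had 1 exon line and so no annotated intron, and 50 had further exons that lie wholly outside the coding sequence. A transcript start was predicted for 48 of the 51 and an end for 50, so untranslated parts of the rest may be cut short. The other 40 of the 141 lacked a start or a stop codon. The share of complete models was 71.6% (95% Wilson interval 63.7 to 78.4%) among the 141 and 86.8% (86.1 to 87.4%) among the 10143 models with coding introns. The difference was -15.1 percentage points (95% Newcombe interval -23.1 to -8.30). These intervals, and those below, cover counting error only, take models as independent and are not adjusted for the number of comparisons.

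The 40 incomplete models were not shown to lack introns. In 23 of them an intron line ran from the coding segment to the end of the model, on the side of the missing codon. These 23 edge introns were 42 to 393 bases long as far as annotated, with a median of 191 bases. In g5973 (scaffold00874, bases 1 to 2108, plus strand), for example, an intron of 393 bases preceded the coding segment of 803 bases. In the other 17 the coding segment itself ran to the end of the model. The missing codon was the start codon in 32 models and the stop codon in 8. In all 40 the missing end was also the end of the annotated stretch of its scaffold, and in 27 it was base 1. These scaffolds carried 1 gene in 16 cases and 2 genes in 24. The models themselves bound the annotated stretch, so for the 16 alone on a scaffold the count was fixed by definition. It is set beside no share of other models. Coding length was not a multiple of 3 in 21 of the 40. By exon lines alone, 35 of the 40 would pass as single-exon models, of which 15 had no intron line. The descriptions that follow are of the 101 complete models unless stated otherwise.

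Complete genes without a coding intron were short. Their median coding length, stop codon included, was 432 bases (95% order-statistic interval 387 to 507), with a range of 204 to 1800 bases. The median of the 8800 complete models with coding introns was 1143 bases (1122 to 1161). The models just outside the rule, with 2 coding segments, had a median of 468 bases (429 to 507, n = 302), and those with 3 had 475.5 bases (450 to 507, n = 626). The median rose with each further segment, to 1497 bases (1449 to 1569, n = 364) in models with 12. The intervals of models with 1, 2 and 3 segments overlapped. No interval of a difference between medians was computed, so a difference in length between genes without a coding intron and those with 1 or 2 is neither claimed nor excluded here. The medians of the 1-exon models (411 bases, 384 to 456) and of those with untranslated exons (489 bases, 366 to 645) had overlapping intervals too.

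**Figure D1:**
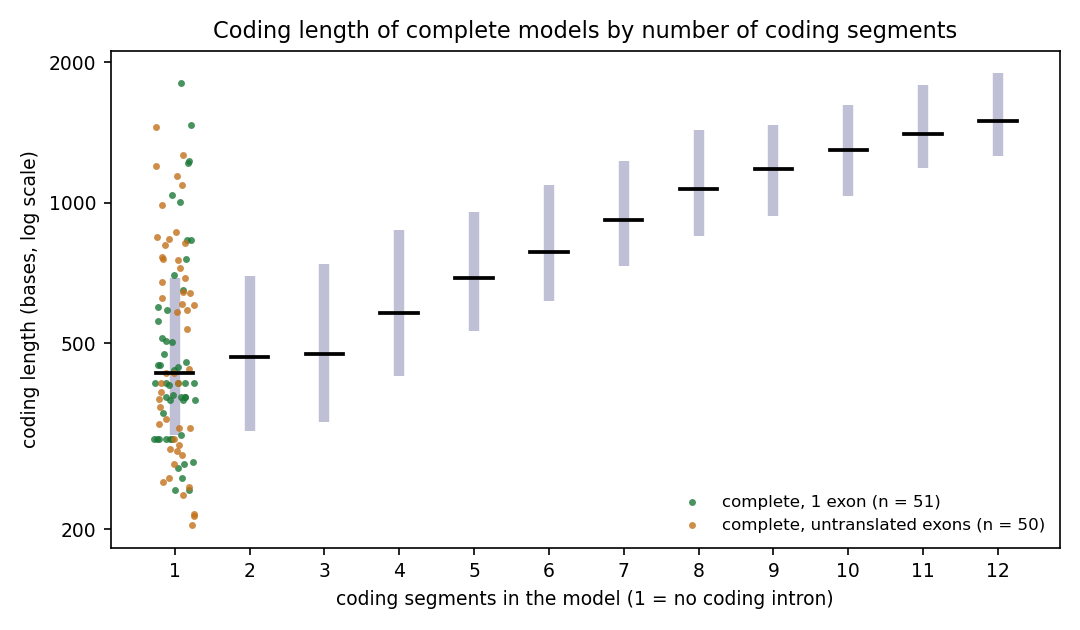
Coding length in bases (log axis) of complete gene models against their number of coding segments. Points at 1 are the single models with 1 exon (green) or with untranslated exons (orange), black bars are medians and shaded bars the 25th to 75th percentile. The median of 432 bases at 1 segment lies close to the 468 bases at 2 segments and rises to 1497 bases at 12.

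Proteins of under 120 codons, or under 360 coding bases, were predicted for 31 of the 101 models (30.7%, 95% Wilson interval 22.5 to 40.3%). The share was 30.8% (25.9 to 36.2%) in models with 2 coding segments and 5.0% (4.56 to 5.48%) in all complete models with coding introns. The shortest members were g3134 on scaffold00366 with 204 bases, g7644 on scaffold01012 with 213, g4175 on scaffold00542 with 216, g7668 on scaffold01012 with 237 and g3097 on scaffold00366 with 243. The first 4 had at least 1 untranslated exon and g3097 had none. No complete model in the annotation had fewer than 201 coding bases, so these lie near the shortest length that was predicted at all.

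Coding lengths of at least 1000 bases were found in 11 of the 101 models (10.9%, 6.19 to 18.5%), against 57.6% (56.5 to 58.6%) of complete models with coding introns. The longest was g8403 with 1800 bases (scaffold01168, bases 25446 to 27570, plus strand), a model of 1 exon. It was followed by g9603 with 1464 bases (scaffold01246, bases 438448 to 440041, minus strand), also of 1 exon. Next were g8406 with 1452, g8405 with 1263 and g8402 with 1230 bases, all on scaffold01168. That scaffold carried 7 of the 11.

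A few coding lengths recurred among the complete members. The 101 models had 76 different lengths, of which 64 occurred once and 8 occurred in a pair of models. The remaining 4 lengths were shared by 21 models: 312 bases by 7, 411 bases by 7, 384 bases by 4 and 378 bases by 3. They encode 103, 136, 127 and 125 codons before the stop codon. Among the 8800 complete models with coding introns, 51 had one of these 4 lengths, a share of 0.580% (95% Wilson interval 0.441 to 0.761%) against 20.8% (14.0 to 29.7%) of the members. The lengths were singled out because members shared them, so the 2 shares are a description and no test. Of the 21 models, 18 had a single exon. A coding score of 1 was given by AUGUSTUS, the program that predicted the models, to 17 of the 21 and to 20 of the other 80. Without these 21, the median coding length of the complete members was 510 bases (432 to 624, n = 80).

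Of the 21 models, 15 lay on scaffold00366, all between the start of g3058 at base 1651688 and the end of g3155 at base 2202352. This stretch of 551 kb held 98 gene models, of which 17 (17.3%) were complete and without a coding intron. The other 593 models of the scaffold included 4. The ends of the stretch were set at members after their places were seen, so these counts are a description and no test. The members did not stand side by side in a block: between successive pairs of them lay 5 to 37 other models. Besides the 15, the stretch held g3097 and g3134, with coding lengths of 243 and 204 bases.

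**Figure D2:**
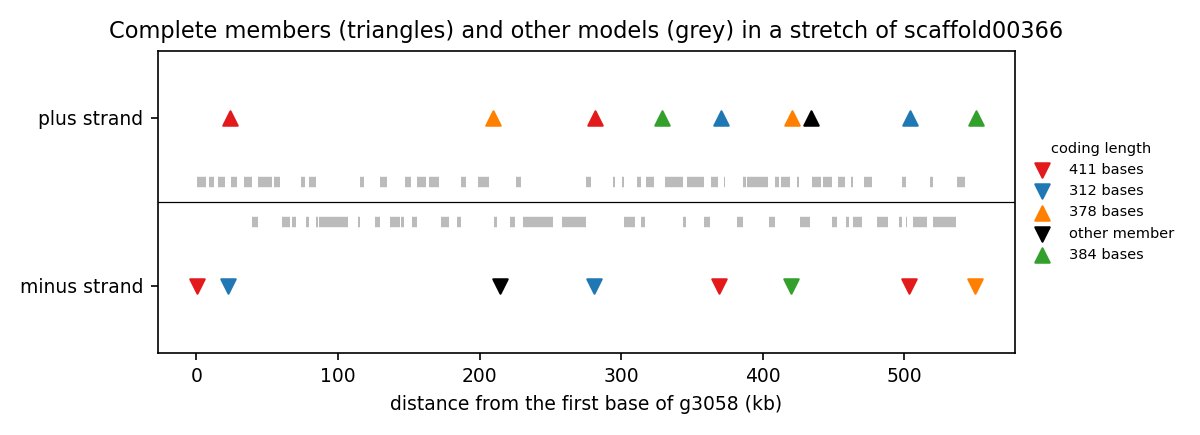
Gene models in the 551 kb stretch of scaffold00366, by distance in kb from the first base of g3058, with the strand on the vertical axis. Triangles are the 17 complete members, coloured by coding length, and grey bars are the other models. The 6 places where an upward and a downward triangle meet are the divergent pairs, 4 joining 312 with 411 bases and 2 joining 384 with 378.

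In this stretch 12 of the members formed 6 divergent pairs, neighbours whose transcripts start next to each other and are read outwards. Each of the 6 pairs joined a coding length with its own counterpart: 312 with 411 bases in 4 pairs and 384 with 378 bases in 2. The pairs of 312 and 411 bases were g3064 and g3065 (bases 1673868 to 1675881), g3103 and g3104 (bases 1932035 to 1933248), g3119 and g3120 (bases 2020905 to 2022258), and g3147 and g3148 (bases 2154519 to 2155752). The shorter model lay on the minus strand in the first 2 and on the plus strand in the last 2. The pairs of 384 and 378 bases were g3129 and g3130 (bases 2071585 to 2072808), with the longer model on the minus strand, and g3154 and g3155 (bases 2201109 to 2202352), with the longer model on the plus strand. Along the scaffold 3 pairs of 312 and 411 bases came first, followed by one of 384 and 378, the last of 312 and 411 and the other of 384 and 378.

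The spacing within the pairs varied little. The first coding bases of the partners were 380 bases apart in g3064 and g3065, 394 in g3103 and g3104, 374 in g3119 and g3120, and 392 in g3147 and g3148. In the pairs of 384 and 378 bases they were 342 apart in g3129 and g3130 and 344 in g3154 and g3155. The 2 kinds of pair thus did not overlap in spacing, at 374 to 394 and 342 to 344 bases. In the 2750 divergent pairs of complete models with coding introns the median spacing between coding starts was 909.5 bases (95% order-statistic interval 868 to 956), and 4.65% of them lay in the span from 342 to 394 bases. This spacing includes any introns in the 5' untranslated parts. None of the paired members had one, against 25.3% of models with coding introns, so the 2 sets are not fully alike. The span was set by the 6 pairs themselves, so the 4.65% is a description and no test. Transcript starts within the 6 pairs were 175 to 305 bases apart. These distances are less exact, because 98.0% of the 2888 divergent distances in the whole annotation end in the digit 5, so that predicted starts lie on a grid of 10 bases.

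**Figure D3:**
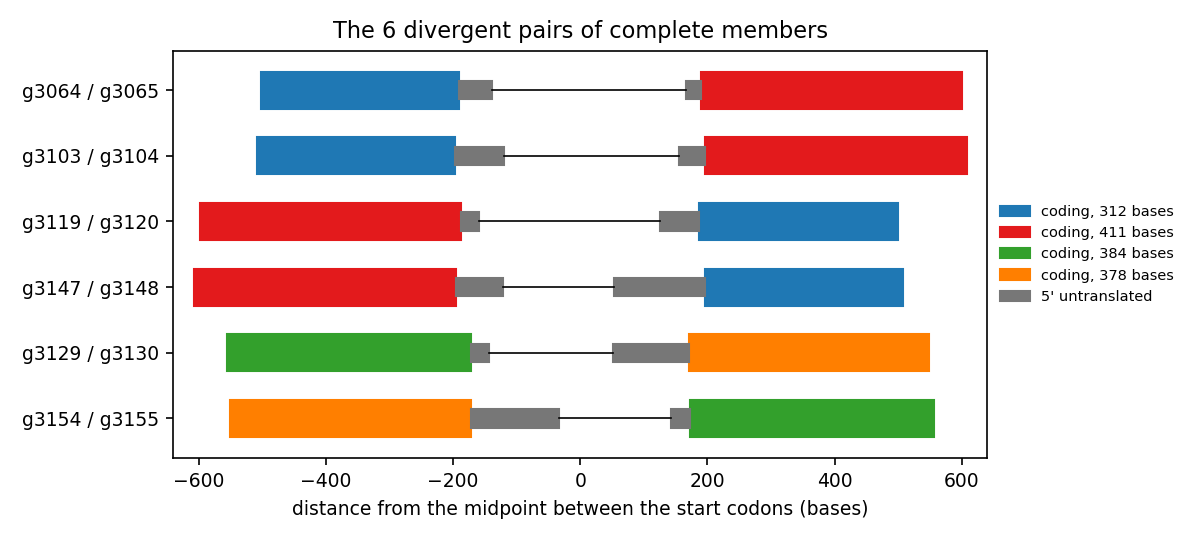
The 6 divergent pairs of complete members on scaffold00366, drawn to scale and centred on the midpoint between their coding starts (distance in bases). Coloured boxes are coding sequences, grey boxes 5' untranslated parts and thin lines the gap between transcript starts; 3' parts are not drawn. Coding starts are 374 to 394 bases apart in the upper 4 pairs and 342 to 344 in the lower 2.

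Leaders within the pairs differed with coding length. The 5' untranslated lengths of the 384-base models were 27 bases in g3129 and 30 in g3155, and those of their 378-base partners were 120 in g3130 and 139 in g3154. In each of the 4 pairs of 312 and 411 bases the 312-base model had the longer 5' part. It measured 51 bases in g3064 against 24 in g3065, 77 in g3103 against 42 in g3104, 61 in g3120 against 28 in g3119, and 143 in g3148 against 74 in g3147. Over all single-exon members of these lengths, the 5' part measured 24 to 47 bases in 4 models of 384 bases and 120 to 139 bases in 3 models of 378 bases, without overlap. It measured 51 to 143 bases in 6 models of 312 bases and 28 to 74 bases in 4 models of 411 bases with a predicted start, and these ranges overlapped. Of the 12 paired models, 11 had 1 exon. The exception was g3065, with an intron of 530 bases in its 3' part.

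The remaining 9 of the 21 models were not paired with another member. On scaffold00366 these were g3058 with 411 bases, g3095 with 378 and g3113 with 384. Elsewhere they were g533 (scaffold00020), g6819 (scaffold00992) and g9895 (scaffold01274) with 312 bases, g3785 (scaffold00514) and g4195 (scaffold00551) with 411, and g7295 (scaffold01010) with 384. Scaffolds of at most 3 genes carried 4 of these, namely g533, g4195, g7295 and g9895. The models g6819 and g3785, on scaffolds with many genes, were the ones among the 21 with an intron in the 5' untranslated part.

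Beyond scaffold00366, 3 further pairs of complete members were direct neighbours, all on the same strand. On scaffold00825, g5775 and g5776 (bases 556755 to 560058, minus strand) had nearly equal coding lengths of 837 and 843 bases and each had 1 untranslated 5' exon. On scaffold01168, g8402 and g8403 (bases 22676 to 27570, plus strand) had 1230 and 1800 coding bases in 1 exon each. On the same scaffold g8405 and g8406 (bases 48287 to 55170, minus strand) had 1263 and 1452 coding bases with 1 and 3 untranslated exons. Together with g8410 (1092 bases) these 4 were 5 of the first 11 models of scaffold01168, within 55.2 kb. No run of 3 or more consecutive complete members occurred.

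Counted over all 9 pairs, 18 of the 97 complete members with a neighbour had another complete member beside them (18.6%, 95% Wilson interval 12.1 to 27.4%). A complete member lay beside 163 of 8759 complete models with coding introns (1.86%, 1.60 to 2.17%). The difference was 16.7 percentage points (95% Newcombe interval 10.2 to 25.6). Without scaffold00366 the shares were 7.89% (3.67 to 16.2%, 6 of 76) and 1.66% (1.40 to 1.96%), a difference of 6.24 points (2.00 to 14.5). Each pair enters these shares with both of its members, so the 18 rest on 9 pairs and the 6 on 3. The intervals take members as independent and are therefore too narrow. Among all 141 members, 20 of 121 with a neighbour had a member beside them (16.5%, 10.96 to 24.2%). The added pair was the complete g1062 and the incomplete g1063 on scaffold00080.

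Complete members lay on 41 scaffolds in all. Of the 67 scaffolds with at least 5 genes, 37 carried no complete member. Complete members made up 3.04% of the 691 models of scaffold00366 (95% Wilson interval 2.00 to 4.60%) and 3.25% of the 277 models of scaffold01168 (1.72 to 6.06%). On the other scaffolds with at least 5 genes they made up 0.763% (0.593 to 0.981%, 60 of 7861). Both scaffolds were singled out for their number of members, so this is a description. An annotated span of at least 100 kb held 90 of the 101 complete members (89.1%, 81.5 to 93.8%) and 98.1% (97.8 to 98.4%) of complete models with coding introns. The minus strand carried 60 of the 101, a count set beside no share of the other models here. None of the 101 overlapped another model. Overlap was rare in the whole annotation, where 10263 of the 10284 models remained once overlapping ones were left out.

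Introns outside the coding sequence were common in these genes. Of the 98 complete members with a predicted transcript start, 45 had at least 1 intron in the 5' untranslated part (45.9%, 95% Wilson interval 36.4 to 55.8%), against 25.3% (24.4 to 26.2%) of 8745 models with coding introns. The difference was 20.6 percentage points (95% Newcombe interval 11.1 to 30.5). Models with 2 coding segments had a share of 41.6% (36.1 to 47.4%, n = 293), and their difference from the members, 4.28 points (-6.83 to 15.5), included 0. In the 3' untranslated part 8 of 99 members with a predicted end had an intron (8.08%, 4.15 to 15.1%), against 3.36% (3.0 to 3.75%) of 8791 models with coding introns. That difference was 4.73 points (0.776 to 11.8), and against models with 2 coding segments it was 2.10 points (-3.01 to 9.49).

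The 5' share moved with the score of the coding segment. Among members with a coding score of at least 0.95 it was 30.2% (19.5 to 43.5%, 16 of 53), and the difference from models with coding introns at that score, 3.99 points (-6.75 to 17.4), included 0. Under 0.95 it was 64.4% (49.8 to 76.8%, 29 of 45) against 24.1% (22.8 to 25.5%), a difference of 40.3 points (25.7 to 52.7). The score is that of the single segment in members but a mean over segments in models with coding introns, so the cut is not like for like. Models with 2 coding segments are not divided by score here. The 21 models of the 4 recurring lengths, of which 17 scored 1, had such an intron in 2 of 20 with a predicted start. Without them the share at a score of at least 0.95 was 42.9% (28.0 to 59.1%, 15 of 35) and the difference 16.7 points (1.73 to 32.99). Over all scores the share without them was 55.1% (44.1 to 65.7%, 43 of 78). The part of the score in the difference was not tested beyond these values.

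**Figure D4:**
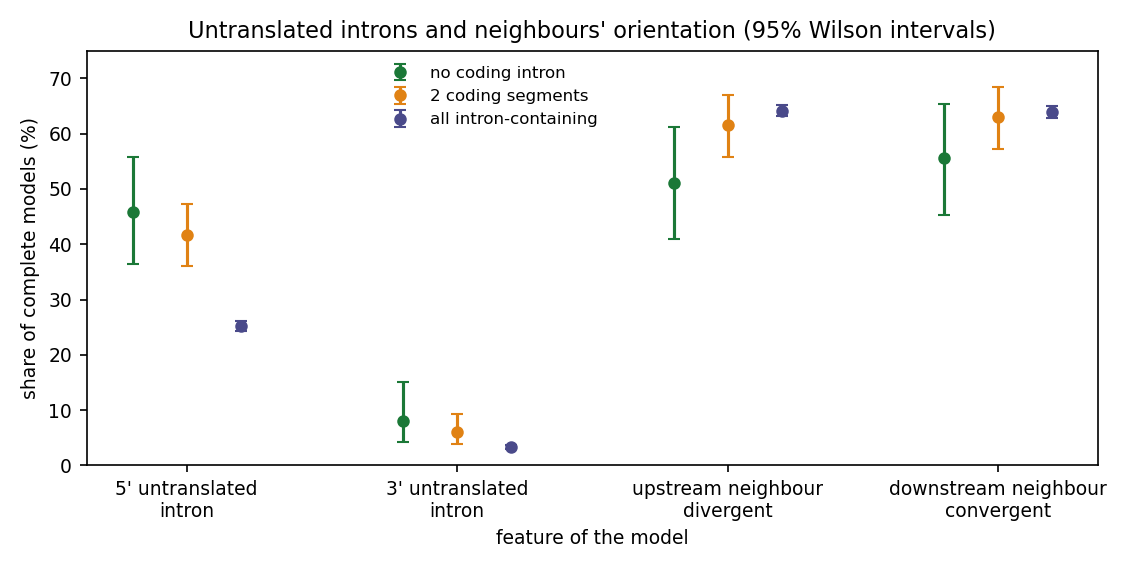
Share in % of complete models with an untranslated intron at either end, with a divergent upstream neighbour and with a convergent downstream neighbour. Points are shares and bars 95% Wilson intervals for models without a coding intron (green), with 2 coding segments (orange) and all models with coding introns (blue). The 5' share is 45.9% in the first, 41.6% in the second and 25.3% in the third group.

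Most members with untranslated exons had few of them. Introns lay only in the 5' part in 42 of the 50 models, only in the 3' part in 5 and in both in 3. Of the 45 models with a 5' intron, 32 had 1 whole 5' exon, 8 had 2, 4 had 3 and 1 had 4. The model with 4 was g10001 (scaffold01279, bases 755079 to 757992, minus strand), with 276 coding bases. Those with 3 were g2199 on scaffold00231, g5356 on scaffold00734, g8406 on scaffold01168 and g9121 on scaffold01211. AUGUSTUS gave the coding segment of g5356 a score of 0.15, the lowest among the 101, and that of g8406 a score of 1.

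The 5' introns lay close to the start codon. The nearest one ended a median of 20 bases before it (95% order-statistic interval 11 to 35, n = 45), with a range of 1 to 252 bases. In models with coding introns that also had a 5' intron, the median was 25 bases (22 to 27, n = 2211). The 64 introns of the members were 106 to 4875 bases long with a median of 206 bases (160 to 239), against 190 bases (183 to 196) for 3022 such introns in the other models. At least 1000 bases were reached by 7 of the 64 (10.9%, 95% Wilson interval 5.40 to 20.9%) and by 9.99% (8.97 to 11.1%) in the other models. These intervals overlapped in all 3 measures. The longest was the 5' intron of 4875 bases in g6003 on scaffold00875. The 8 introns in 3' parts measured 57 to 3739 bases, the longest in g8309 on scaffold01136. Both genes were chosen after their values were seen.

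The 5' untranslated part was longer in members with untranslated exons than in 1-exon members. The median 5' untranslated length was 50.5 bases (95% order-statistic interval 47 to 72, n = 48) in 1-exon members, 148 bases (110 to 184, n = 50) in members with untranslated exons and 74 bases (72 to 76, n = 8745) in complete models with coding introns. The second group holds whole extra exons by definition, which adds to its length. Over all complete members with a predicted start the median was 81.5 bases (72 to 118, n = 98). The median 3' untranslated length was 94.5 bases (71 to 157, n = 50) in 1-exon members, 211 bases (148 to 306, n = 49) in members with untranslated exons and 146 bases (143 to 150, n = 8791) in models with coding introns. At the 3' end the intervals of the 2 kinds of members overlapped. At the 5' end the intervals of the first and last of these groups met at 72 bases, and at the 3' end the interval of the 1-exon members included the median of models with coding introns. The 21 models of the 4 recurring lengths had a median 3' part of 67 bases (54 to 95), and the 32 other 1-exon members with a predicted end had 155.5 bases (86 to 229), with overlapping intervals. No interval of a difference between medians was computed, so these overlaps leave a difference undecided.

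**Figure D5:**
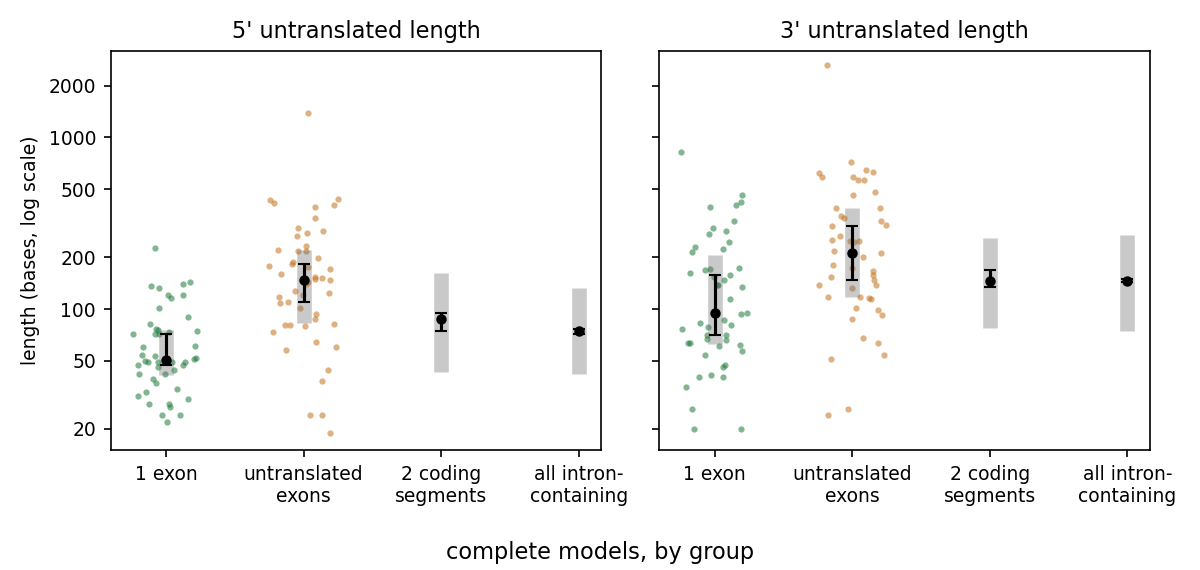
Length in bases (log axis) of the 5' (left) and 3' (right) untranslated parts of complete models, by group. Coloured points are single members, black points medians with 95% order-statistic intervals, and grey bars the 25th to 75th percentile. The 1-exon members have the lowest medians, 50.5 bases at the 5' end and 94.5 at the 3' end.

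A single model stood far above the rest at both ends. In g7879 (scaffold01039, bases 76457 to 80810, minus strand) a coding sequence of 252 bases was flanked by 1386 bases at the 5' and 2659 bases at the 3' end. It was the single model of its scaffold. The next longest 5' parts were 438 bases in g2199 and 432 in g4175, and the next longest 3' parts were 823 bases in g4083 on scaffold00514 and 717 in g4175.

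Taken over both kinds of complete members, neighbours lay on the same strand more often than neighbours of models with coding introns. Where a scaffold carried 5 genes or more, 81 of 171 adjacent pairs with a complete member were on 1 strand (47.4%, 95% Wilson interval 40.03 to 54.8%), against 35.9% (34.8 to 36.9%) of 8534 pairs of complete models with coding introns. The difference was 11.5 percentage points (95% Newcombe interval 4.10 to 19.04). For pairs less than 1000 bases apart it was 13.3 points (3.40 to 23.9), and without scaffold00366 12.8 points (4.46 to 21.2). Pairs with a complete 1-exon member were on 1 strand in 43 of 78 cases (55.1%, 44.1 to 65.7%). The same-strand share is not given here for members with untranslated exons or for models with 2 coding segments. Divergent pairs made up 23.4% (17.7 to 30.3%) against 32.2% (31.2 to 33.2%), a difference of -8.83 points (-14.6 to -1.88). Convergent pairs, whose transcripts end next to each other, made up 29.2% (22.9 to 36.5%) against 31.9% (30.9 to 32.9%), and the interval of that difference (-9.06 to 4.60 points) included 0. Pairs share members, since most genes have a neighbour on either side.

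Seen from the gene, the upstream neighbour was divergent for 46 of 90 members (51.1%, 95% Wilson interval 41.0 to 61.2%) and for 64.1% (63.1 to 65.1%) of models with coding introns. The difference was -13.0 points (95% Newcombe interval -23.2 to -2.90). Without scaffold00366 and its divergent pairs the share of members was 43.5% (32.4 to 55.2%) and the difference -20.5 points (-31.6 to -8.71). Against models with 2 coding segments (61.6%) the difference was -10.5 points (-22.0 to 1.17), and its interval included 0. The downstream neighbour was convergent for 55.6% (45.3 to 65.4%) of members and for 63.9% (62.9 to 64.9%) of models with coding introns, a difference of -8.37 points (-18.7 to 1.51). By kind, the upstream neighbour was divergent for 19 of 42 1-exon members (45.2%), a difference of -18.9 points (-32.9 to -4.05) from models with coding introns. For members with untranslated exons it was divergent in 27 of 48 (56.25%). That difference, -7.88 points (-21.9 to 5.20), included 0. Downstream, the difference intervals of both kinds included 0.

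Over all complete members together, upstream neighbours lay further away than those of models with coding introns. The median distance to the upstream neighbour was 1010.5 bases (95% order-statistic interval 655 to 1455, n = 90) in complete members and 605 bases (585 to 635, n = 8660) in models with coding introns. It was 1517 bases (648 to 2685, n = 42) in 1-exon members and 809 bases (545 to 1186, n = 48) in members with untranslated exons. The interval of members with untranslated exons overlapped that of models with coding introns. Without scaffold00366 the medians were 1186 bases (845 to 1646, n = 69) and 605 bases (575 to 625). The median distance to the downstream neighbour was 749.5 bases (556 to 1388, n = 90) against 466 bases (446 to 490, n = 8627). Downstream, the intervals overlapped once scaffold00366 was left out, at 596 bases (434 to 966, n = 69) against 471 bases (450 to 499). They also overlapped once the 4 recurring coding lengths were left out (644 bases, 476 to 1386, n = 73), and members with untranslated exons had a downstream median of 551 bases (383 to 856, n = 48). In models with 2 coding segments the medians were 685 bases upstream (515 to 955) and 476 bases downstream (388 to 726), and both intervals overlapped those of the members.

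Distances differed with orientation in models with coding introns, so all 4 kinds of neighbour are also given apart. Members with a same-strand upstream neighbour had a median distance of 1321 bases (822 to 2665, n = 44) against 917 bases (845 to 1006, n = 3106), and the intervals overlapped. The 2 kinds of members differed here. The median was 2685 bases (1455 to 5555, n = 23) in 1-exon members, without overlap with models with coding introns. Models with 2 coding segments (1251 bases, 795 to 1656, n = 108) overlapped it. Members with untranslated exons had 805 bases (524 to 1186, n = 21), below the interval of 1-exon members. With a divergent upstream neighbour the medians of all members and of models with coding introns were 585 bases (305 to 1355, n = 46) and 475 bases (445 to 505, n = 5554), with overlapping intervals. Without scaffold00366 and its close pairs the divergent medians were 1330 bases (655 to 1795, n = 30) and 475 bases (445 to 505), without overlap. With a same-strand downstream neighbour the median of the members was the lower one, at 858.5 bases (596 to 1622, n = 40) against 926 bases (859 to 1015, n = 3112), with overlapping intervals. For a convergent downstream neighbour the medians were 654.5 bases (336 to 1689, n = 50) and 271 bases (256 to 286, n = 5515), without overlap. That separation was lost without scaffold00366, at 476 bases (206 to 1388, n = 39) against 276 bases (256 to 293), and the interval of models with 2 coding segments (219 to 406) overlapped that of all members. Among 1-exon members with a divergent upstream neighbour the median was 285 bases (195 to 2295, n = 19), which includes the paired models of scaffold00366.

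Coding segments scored higher in models of 1 exon than in those with untranslated exons. The score, as AUGUSTUS wrote it, was at least 0.95 in 35 of 51 models with 1 exon (68.6%, 95% Wilson interval 55.0 to 79.7%) and in 19 of 50 with untranslated exons (38.0%, 25.9 to 51.8%). The difference was 30.6 percentage points (95% Newcombe interval 11.2 to 47.0). Without the 4 recurring coding lengths the counts were 19 of 33 (57.6%, 40.8 to 72.8%) and 17 of 47 (36.2%, 24.0 to 50.5%), and the interval of that difference, 21.4 points (-0.628 to 40.9), included 0. Over all complete members the share was 53.5% (43.8 to 62.9%). The mean coding score reached 0.95 in 54.3% (48.7 to 59.8%) of models with 2 coding segments and in 55.6% (54.6 to 56.7%) of all complete models with coding introns, means over several segments and so less spread by construction. None of the 101 complete members had a second transcript, against 1.77% (1.52 to 2.07%) of models with coding introns. A count of 0 in 101 allows a share of up to 2.97% by a limit of 3 counts and up to 3.66% by the Wilson interval, so a difference was not detectable at this number. In 2 genes outside the rule a second, shorter transcript had no coding intron, namely g4604 on scaffold00629 (1380 coding bases, against 3198 in its longer transcript) and g4997 on scaffold00661 (657 against 1572).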

How the data were processed

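The deposited file gives gene models predicted by AUGUSTUS, per the file's source column. Its version, its settings, the evidence behind it and the assembly used are not given in the sources used. TopHat 1.3.3 and Cufflinks are named in the submitters' processing notes. Positions count from 1. The score column was deposited by the authors without a description and was used only as a label. For each gene the transcript of greatest coding length was used (the first listed where tied). A model was complete where a start and a stop codon line were present. Coding length includes the stop codon. Untranslated introns were taken as gaps between exon lines, since intron lines in the file cover introns between coding segments, or from a coding segment to a model's end, only. Shares carry 95% Wilson intervals, their differences Newcombe intervals, and medians intervals between order statistics by binomial ranks. Differences between medians carry no interval, so overlap of 2 median intervals does not show that the medians are alike. No p-value was computed, since genes are not replicates. Orientation and distance to neighbours used scaffolds with at least 5 genes. Depth per library is unknown here. Python 3.11.15, NumPy 2.4.6, SciPy 1.17.1 and matplotlib 3.10.9 were used. The code read back 1200 of 1200 simulated models correctly.

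The members and lists were chosen with earlier results of these data known. The rule for named models took the 5 longest and 5 shortest complete members by coding length, the 5 with the most untranslated exons, the 5 closest neighbouring member pairs, members that overlap another model (none did), the 3 longest at each untranslated end, and the 3 scaffolds with the most members. Other models named, among them the 4 further neighbouring pairs and the models of the 4 recurring coding lengths, were chosen after their values were seen.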

Additional observations from a re-analysis of the deposited data

How the results depend on the processing

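Of 127 values of 14 results under 13 alternatives set beforehand, 109 lay inside the 95% interval of the main value and 18 outside. That tally is no measure of stability, because many of the 109 could not move. Taking the first transcript listed returned every main value. Leaving out overlapping models changed only the share of genes without a coding intron. Every complete member had a coding length that is a multiple of 3, so that setting left results over complete members alone unchanged. The same 171 neighbour pairs remained with scaffolds of at least 20 genes or 100 kb. Scaffold size in kb, here and below, is the annotated span from the first model's start to the last model's end, since scaffold lengths were not used. The main share of genes without a coding intron was 1.37% (1.16 to 1.61%); counted by exon lines it was 0.836%, with at least 300 coding bases 1.02% and with scaffolds of 100 kb or more 1.03%. The share of members with 1 exon line, 61.0% over all 141, was 46.7% on scaffolds of at least 100 kb and 72.7% at a mean coding score of at least 0.95. Complete members made up 100% on scaffolds of at least 100 kb (90 of 90), 84.2% where coding length was a multiple of 3 and 83.2% with at least 300 coding bases. At a score of at least 0.95 the median 3' untranslated length was 114 bases, the share with a 5' untranslated intron 30.2% and the median score 1, the last by construction. In members with 1 exon line the median untranslated lengths were 50.5 bases (5') and 94.5 bases (3'), the same-strand share 55.1% and the median distances 1517 bases upstream and 1421.5 bases downstream. Without the scaffold with the most members 8.00% of members had a member beside them. Between coding ends the upstream distance was 1675 bases, which adds the untranslated parts to the gap. A further 3 alternatives were chosen after seeing the data, with 23 of 29 values inside the interval. Without coding lengths of 312, 378, 384 and 411 bases the share of genes was 1.16%, the median coding length 510 bases and the share with a member as neighbour 8.08%. Without members that have an intron line the share of genes was 1.15% and complete members made up 85.6%. Counted by models with 1 exon line and no intron line the share of genes was 0.642%. Where no value above bears on it, the cause was not tested. The shares with untranslated introns among 1-exon members were not run, being 0 by definition. No paired analysis was possible because no value belongs to a single library. Whether read depth shaped the models is unknown here.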
